A study of Homo sapiens with 18 samples.

Results

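The chromatin around 9 genes that govern entry into and exit from the cell cycle was examined in PC9, an established human lung adenocarcinoma line whose growth depends on mutant EGFR. The genes were CCND1, CCNE1, CDK6, CDKN1A, CDKN1B, CDKN2A, CDKN2B, E2F1 and MYC, and each was taken by name with 50 kb on either side of its body in hg19. CDKN2A and CDKN2B share a window, so the 9 genes gave 8 windows. Open chromatin had been mapped by ATAC-seq, in which a transposase cuts accessible DNA, and 1 list of called peaks was used for each of 18 libraries. Overlapping peaks of the 18 lists were merged into 79483 regions, and 70 of these lay in the 8 windows.

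The 18 libraries formed 6 groups of 3, lettered a, b and c. Unsorted PC9 cells in DMSO are called PC9 below. DTP libraries came from drug-tolerant persister cells, the cells still alive after 8 days in 1 uM erlotinib, an inhibitor of EGFR. The other 4 groups were PC9 cells given DMSO or 1 uM erlotinib for 12 hours and then sorted by Aldefluor, a fluorescent assay of aldehyde dehydrogenase (ALDH) activity, into ALDH-low and ALDH-high fractions. All cells were frozen and thawed before the transposase step, and persisters are a selected surviving population of this 1 line. The labels do not say that the letters are separate cultures, so spread between libraries may be technical, and the peak lists give no gene expression by which the line or the persister state could be checked.

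Cyclin D1 (CCND1) binds CDK4 or CDK6 and phosphorylates the retinoblastoma protein, which frees E2F factors such as E2F1 to switch on S-phase genes, among them cyclin E1 (CCNE1). The INK4 proteins made by CDKN2A (p16) and CDKN2B (p15) block CDK4 and CDK6, and the CIP/KIP proteins made by CDKN1A (p21) and CDKN1B (p27) bind cyclin and CDK complexes. CDKN2A also encodes ARF, which stabilises p53 and is read from its own promoter. MYC is a transcription factor that drives growth and is induced by growth factor signalling, including signalling from EGFR.

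None of the 8 windows was without peaks. CDK6 had 18 regions, CDKN1A had 10, CCNE1 and E2F1 had 9 each, CCND1 had 7, CDKN1B and CDKN2A/CDKN2B had 6 each, and MYC had 5. Of the 70 regions, 14 (20%) held a peak in every library, against 17.7% of all 79483 regions. Another 5 (7.14%) held a peak in 1 library alone, against 21.2% of all regions. The median region was 1136 bp wide in the windows and 999 bp over all regions. By place, 23 regions lay within a gene body, 16 upstream, 25 downstream and 6 across a gene's 5′ end. Regions are named below by gene and by the distance of their midpoint from its 5′ end, with minus for upstream, and CDKN2A/CDKN2B distances are counted from CDKN2B.

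The start sites differed between genes. Regions across or beside the start held a peak in all 18 libraries at CCNE1, CDKN1B, CDKN2B, E2F1 and MYC, and both CDKN2A starts also lay where all 18 libraries had a peak. At CCND1, CDK6 and CDKN1A the picture was partial, as described below. The RefSeq promoter table (GRCh38.p14) held entries for 7 of the 9 genes, with CCND1 and MYC unmatched. The sequences shown are the 250 bases before the start of CCNE1, open in every library, of CDKN1A, whose nearest region was missing from the PC9 libraries, and of both CDK6 entries, which lie 2.6 kb apart and differed in how many libraries were open there. Each is printed 5′ to 3′ on the gene's strand, with the 50 bases next to the start in capitals.
CCNE1, chr19:29811741-29811990, plus strand: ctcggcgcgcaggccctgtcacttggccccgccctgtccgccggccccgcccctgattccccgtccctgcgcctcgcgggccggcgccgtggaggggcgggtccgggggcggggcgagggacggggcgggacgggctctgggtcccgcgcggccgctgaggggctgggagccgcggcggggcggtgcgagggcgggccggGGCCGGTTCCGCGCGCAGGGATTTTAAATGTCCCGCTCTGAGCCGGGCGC
CDKN1A, chr6:36678464-36678713, plus strand: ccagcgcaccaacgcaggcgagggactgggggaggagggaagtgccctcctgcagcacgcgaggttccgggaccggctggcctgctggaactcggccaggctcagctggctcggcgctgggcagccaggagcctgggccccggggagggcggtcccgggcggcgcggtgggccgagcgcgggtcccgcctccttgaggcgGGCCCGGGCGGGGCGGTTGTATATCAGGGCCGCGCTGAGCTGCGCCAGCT
CDK6 outer start, chr7:92836574-92836823, minus strand: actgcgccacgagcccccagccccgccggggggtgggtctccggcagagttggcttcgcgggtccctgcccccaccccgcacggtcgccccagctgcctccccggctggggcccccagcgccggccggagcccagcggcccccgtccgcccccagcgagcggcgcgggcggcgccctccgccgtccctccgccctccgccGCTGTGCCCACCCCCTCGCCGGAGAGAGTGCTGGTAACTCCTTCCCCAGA
CDK6 inner start, chr7:92833960-92834209, minus strand: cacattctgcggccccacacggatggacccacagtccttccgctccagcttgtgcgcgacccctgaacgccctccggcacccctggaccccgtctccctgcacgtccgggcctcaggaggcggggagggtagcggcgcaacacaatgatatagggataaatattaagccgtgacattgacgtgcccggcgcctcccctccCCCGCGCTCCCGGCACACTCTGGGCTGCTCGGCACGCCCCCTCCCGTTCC
GC content of these 250 bases was 81.2% at CCNE1, 76.4% at CDKN1A, 80% at the outer CDK6 start and 67.6% at the inner one. The promoter entries, 250 bases before and 50 after each start, were searched on both strands for 5 motifs, none of which contains another. They were the E-box CACGTG, AP-1 TGANTCA, E2F GCGGGAA, FOXO GTAAACA and ETS CCGGAAG, present in 7.26%, 7.71%, 6.55%, 3.42% and 10.3% of 35116 promoters of that length. Among the 9 entries of the member genes, only the outer CDK6 entry held any of these letters, an E-box beginning at base 31 after the start. Exact letters alone were matched, so an entry without a match may hold other forms of these sites.

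**Figure D1:**
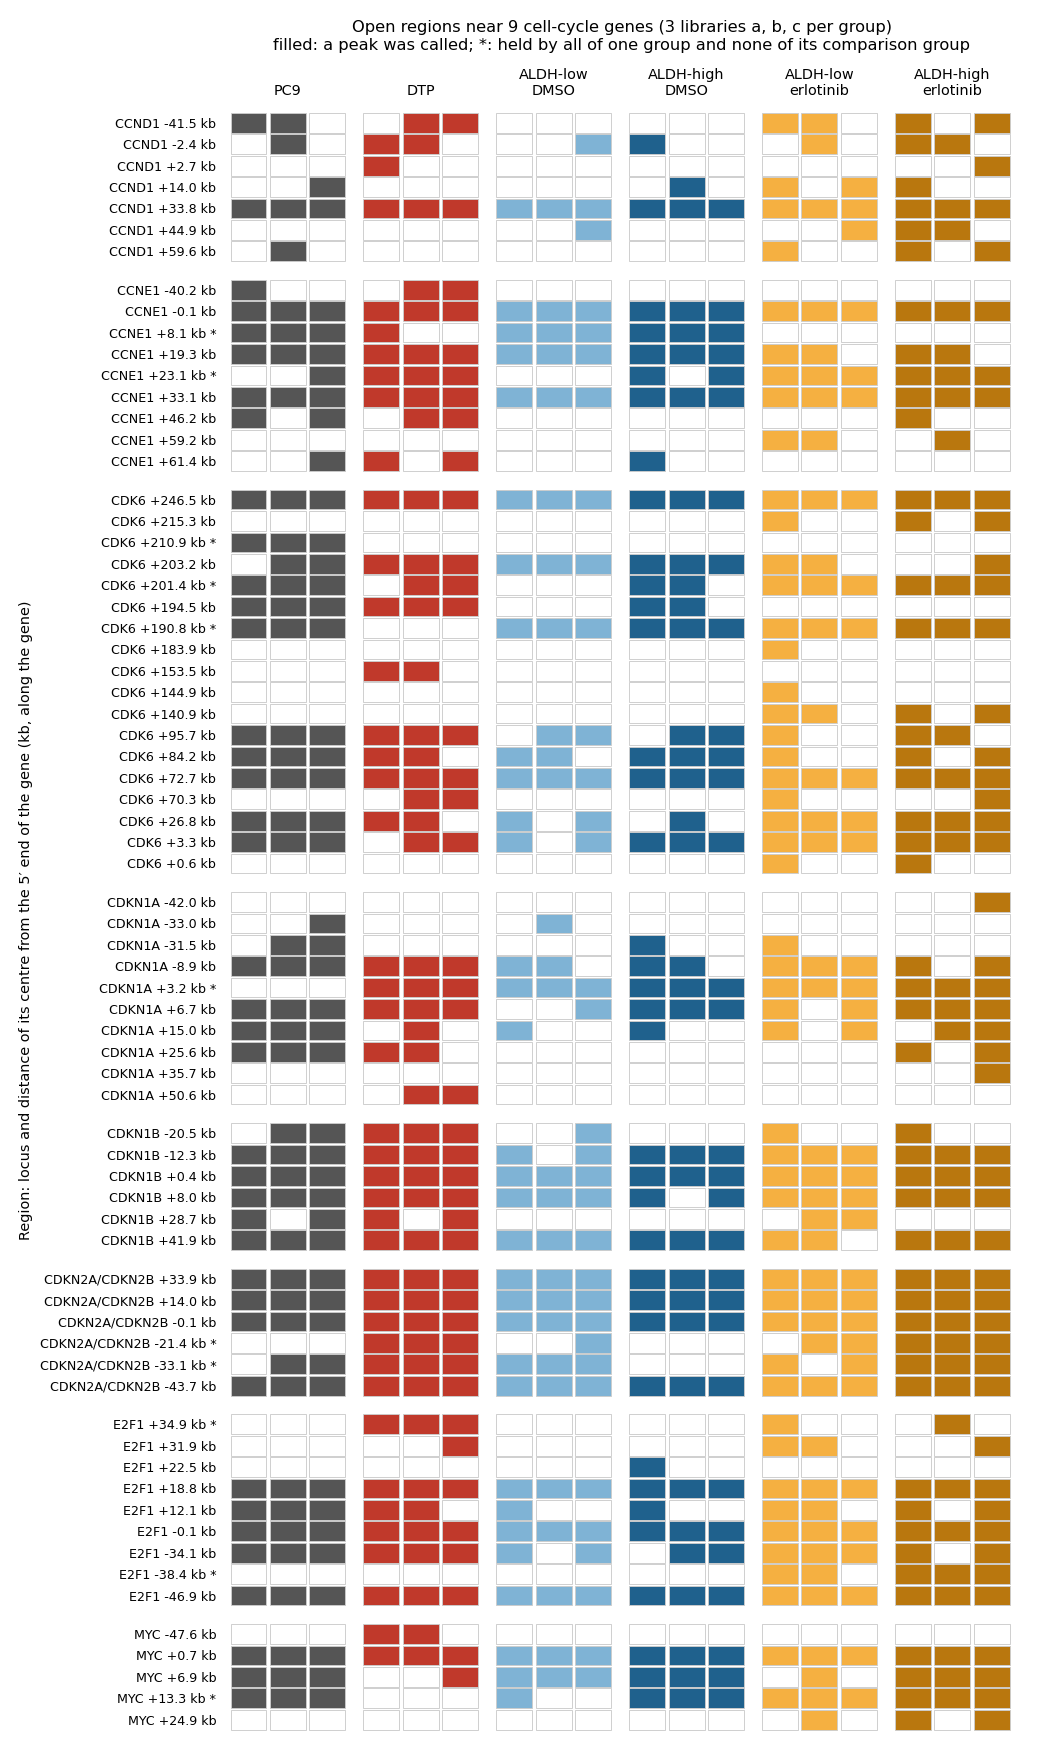
Peaks in each of the 70 regions (lines) and 18 libraries (columns, grouped by condition), with a filled cell where the library had a peak. Regions at the starts of CCNE1, CDKN1B, CDKN2B, E2F1 and MYC were filled in all 18 columns, and CCNE1 +8.1 kb was empty in all 6 erlotinib-treated sorted libraries.

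Change was scored in 3 ways. A region counted as gained if it held a peak in 3 of 3 treated (or ALDH-high) libraries but in 0 of 3 of the comparison group, and as lost in the reverse case. For the 12 sorted libraries together, a region was separated by treatment when all 6 of one treatment and none of the other had a peak, and the exact permutation test shuffled libraries within each ALDH fraction, with a smallest possible two-sided p of 0.005. The other measure was the number of bases that peaks covered in a window, tested in the same way. Bins of 100 kb over the genome were measured beside the windows. The windows were 105 to 332 kb wide and placed on genes, so shares of windows and of bins are not like for like. Comparisons of 3 libraries against 3 cannot give an exact permutation p under 0.1. The lists ran from 26228 to 45244 peaks and were shortest in ALDH-low DMSO, and the sequencing depth behind them is unknown. A longer list covers more bases in general, so the windows were also measured with every list cut to its 26225 highest-scoring peaks, called equal lists here, and per megabase of peaks in the library. Cutting to an equal number sets a different lowest score in each list, 70 to 70.7 in ALDH-low DMSO, 83.64 to 93.23 in ALDH-high DMSO, 93.94 to 130.42 in sorted erlotinib, 108.54 to 116.33 in PC9 and 113.81 to 122.02 in DTP. A peak of a given score can therefore be kept in a DMSO list and removed from an erlotinib list, and a loss with equal lists alone does not show that chromatin changed. A peak's score is the peak caller's own value, at least 70 in every list, and its percentile is its rank from the bottom of its own list.

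Among the cyclins, CCNE1 had the 1 region of the 70 that separated all DMSO from all erlotinib libraries of the sorted cells. CCNE1 +8.1 kb (chr19:30310585-30311577, hg19, inside the gene body) had a peak in all 3 PC9 libraries, in all 3 ALDH-low DMSO and all 3 ALDH-high DMSO libraries, and in none of the 6 sorted erlotinib libraries. Among persisters only library a had one, with a score of 83.91 at percentile 14.8. The peaks were far from the floor in PC9, where scores were 243.27, 239.81 and 316.17, and in ALDH-high DMSO, where they were 213.85, 282.52 and 170.54. They were lower in ALDH-low DMSO, at 105.43, 84.12 and 116.26. All 6 DMSO and none of the 6 erlotinib libraries thus held the region, with an exact permutation p of 0.005 that became 0.226 after Benjamini-Hochberg adjustment over 49820 regions, so it did not pass. None of the 49820 regions passed, while 5.57% were higher and 0.723% lower in erlotinib at an unadjusted exact permutation p under 0.05, among members 1 of each (E2F1 -38.4 kb and CCNE1 +8.1 kb). It was 1 member lost of 65 held by any sorted library, with 0 gained, where 0.16% of all regions were lost by the same rule and 1.55% were gained. The same pattern over all 18 libraries was found at 6 other regions of the genome.

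With equal lists CCNE1 +8.1 kb was held by 3 of 3 PC9 libraries and 0 of 3 DTP libraries, and it was then lost in all 3 drug comparisons, since the persister peak of library a lay under that list's lowest score. The 6 erlotinib libraries had no peak there before any cut. Its exact permutation p over the sorted libraries was again 0.005, with an adjusted p of 0.224. Requiring a score of at least 100 ended the call over the sorted libraries, because 1 ALDH-low DMSO peak fell below that score.

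The CCNE1 start held a peak in every library. CCNE1 -0.1 kb (chr19:30301816-30303967) covered 1066, 853 and 936 bases in PC9 and 1345, 1448 and 1886 bases in DTP, whose lists cover more bases in total (42.1 to 43.4 Mb against 37.6 to 38.6 Mb in PC9). Equal lists kept it in 2 of 3 PC9 libraries and in all 15 others. It covered 836 to 1170 bases in the 6 sorted DMSO libraries and 864 to 2027 bases in the 6 erlotinib ones, which overlap. CCNE1 +33.1 kb was the highest-ranking region of this window, held by all 18 libraries at percentiles of 58.6 to 89.9. CCNE1 +23.1 kb was gained in ALDH-low cells under erlotinib (0 of 3 to 3 of 3), while ALDH-high cells had it in 2 of 3 DMSO and 3 of 3 erlotinib libraries, PC9 in 1 and DTP in 3. Equal lists left it in 2 of 3 ALDH-low erlotinib libraries, which ended that call.

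Over the CCNE1 window peaks covered 5913, 4563 and 6256 bases in PC9 and 7363, 6624 and 8309 bases in DTP. The DTP libraries were all higher, by 1855 bases on average (33.3%), where the median over 100 kb bins of the genome was 8.43%. The exact permutation p was 0.1, the smallest possible, and the adjusted p was 0.334. Equal lists kept the groups apart, by 1730 bases, but per megabase of peaks the groups overlapped. Among sorted cells the same window had means of 4655 bases in DMSO and 4971 bases in erlotinib, with an exact permutation p of 0.565. Per megabase of peaks the sorted difference was in the opposite direction, at -30.3 bases with an adjusted p of 0.103.

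**Figure D2:**
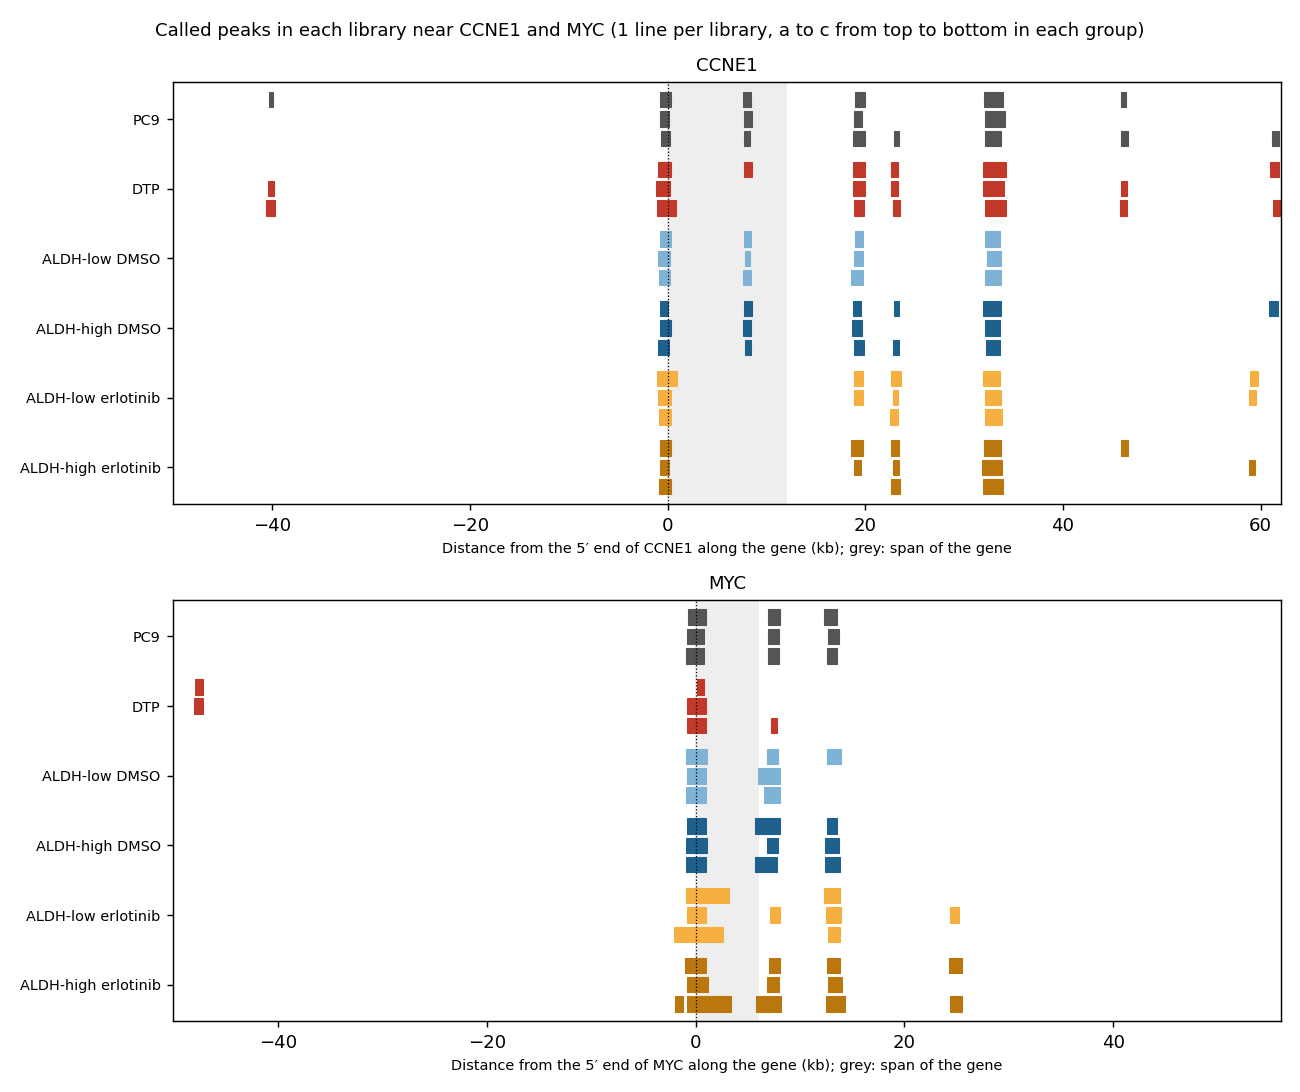
Called peaks of the 18 libraries around CCNE1 and MYC, drawn as bars against distance from the 5′ end in kb, with 1 line per library and the gene span in grey. The CCNE1 peak 8.1 kb from the start is missing from all 6 erlotinib-treated sorted libraries, and the MYC peak 13.3 kb from the start is missing from all 3 DTP libraries.

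CCND1 had no peak across its 5′ end in any of the 18 libraries. The nearest region, CCND1 -2.4 kb (chr11:69452720-69454563), ended 1437 bp before the start and had a peak in 8 libraries: 1 of PC9, 2 of DTP, 1 of ALDH-low DMSO, 1 of ALDH-high DMSO, 1 of ALDH-low erlotinib and 2 of ALDH-high erlotinib. Those 8 peaks lay at percentiles of 2.37 to 54.8. Just inside the gene, CCND1 +2.7 kb had a peak only in DTP library a, at a score of 83.9, and in ALDH-high erlotinib library c, at 72.95. Peaks are numbered in the lists, and 0 numbers were missing inside any of the 8 windows. CCND1 +33.8 kb (chr11:69488848-69490843), past the 3′ end towards LTO1 and FGF19, was the 1 region of the window held by all 18 libraries, at percentiles of 22.1 to 79.8. Whether it belongs to CCND1 or to a neighbour was not determined.

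No CCND1 region was gained, lost or separated in any comparison. In PC9 the window covered 1532, 3969 and 2247 bases and in DTP 3090, 3186 and 2347, which overlap, with a mean difference of 292 bases and an exact permutation p of 0.7. With equal lists every DTP library was higher, with means of 467 bases in PC9 and 1634 in DTP (a difference of 1167) at the smallest exact permutation p of 0.1, and CCND1 +33.8 kb was then held by 1 of 3 PC9 and all 15 other libraries. Among sorted cells covered bases varied widely within groups, at 877, 1137 and 3965 in ALDH-low DMSO and 2373, 3492 and 893 in ALDH-high DMSO. They were 4270, 3894 and 3446 in ALDH-low erlotinib and 5470, 3286 and 4828 in ALDH-high erlotinib. The ranges overlapped through 1 DMSO library in each fraction, and the mean difference of 2076 bases had an exact permutation p of 0.03 and an adjusted p of 0.119. Equal lists turned this difference to -174 bases.

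CDK6, the kinase partner of cyclin D1, is the longest of the 9 genes, and its regions were spread along it. The inner start lay in CDK6 +3.3 kb (chr7:92461393-92463956), open in 16 libraries, all except DTP library a and ALDH-low DMSO library b. The outer start lay in CDK6 +0.6 kb (chr7:92464226-92466551), which had a peak only in ALDH-low erlotinib library a and ALDH-high erlotinib library a, at scores of 82.82 and 75.23. Assignment of the 2 starts to these regions rests on their spacing of 2.6 kb in GRCh38, since the peaks are in hg19. CDK6 +246.5 kb, beyond the 3′ end towards FAM133B, was the highest-ranking region of all at the median, held by all 18 libraries at percentiles of 75 to 96.5. Whether it belongs to CDK6 or to FAM133B was not determined. CDK6 +72.7 kb was the other held by all 18.

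In DTP against PC9, 2 of 13 CDK6 regions held by either group were lost and 0 gained. Over all windows 3 of 58 regions (5.17%) were lost, near the 3.68% of all regions. CDK6 +190.8 kb (chr7:92274581-92275771) had a peak in all 15 libraries outside DTP and in 0 of 3 DTP libraries. Its scores were 193.49, 149.44 and 193.31 in PC9 and ran from 95.92 to 230.11 in the 12 sorted libraries, erlotinib included. The call held with equal lists and with a minimum score of 100, and 58 other regions shared the pattern. CDK6 +210.9 kb had a peak in 3 of 3 PC9 libraries and in no other library, a pattern shared with 407 other regions, and equal lists left it in 1 PC9 library. CDK6 +201.4 kb was held by all PC9 libraries and all 6 sorted erlotinib libraries, by 2 of DTP, 2 of ALDH-high DMSO and 0 of 3 ALDH-low DMSO, which made it gained in ALDH-low cells, a call that ended with equal lists.

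Covered bases at CDK6 were 9498, 10633 and 10033 in PC9 and 7096, 10480 and 9298 in DTP, which overlap, with an exact permutation p of 0.4. Per megabase of peaks they were 265 ± 15.6 in PC9 and 209 ± 38.1 in DTP (SD, n = 3), without overlap, at the smallest exact p of 0.1. Among sorted libraries the erlotinib difference was 2656 bases as deposited, with an exact permutation p of 0.085. Equal lists turned it to -973 bases, with an exact permutation p of 0.05 and an adjusted p of 0.216. Per megabase of peaks it was 9.09 bases in ALDH-low and -7.44 bases in ALDH-high cells, with overlap in both. With equal lists CDK6 +203.2 kb was also lost in ALDH-low cells and CDK6 +84.2 kb in ALDH-high cells.

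**Figure D3:**
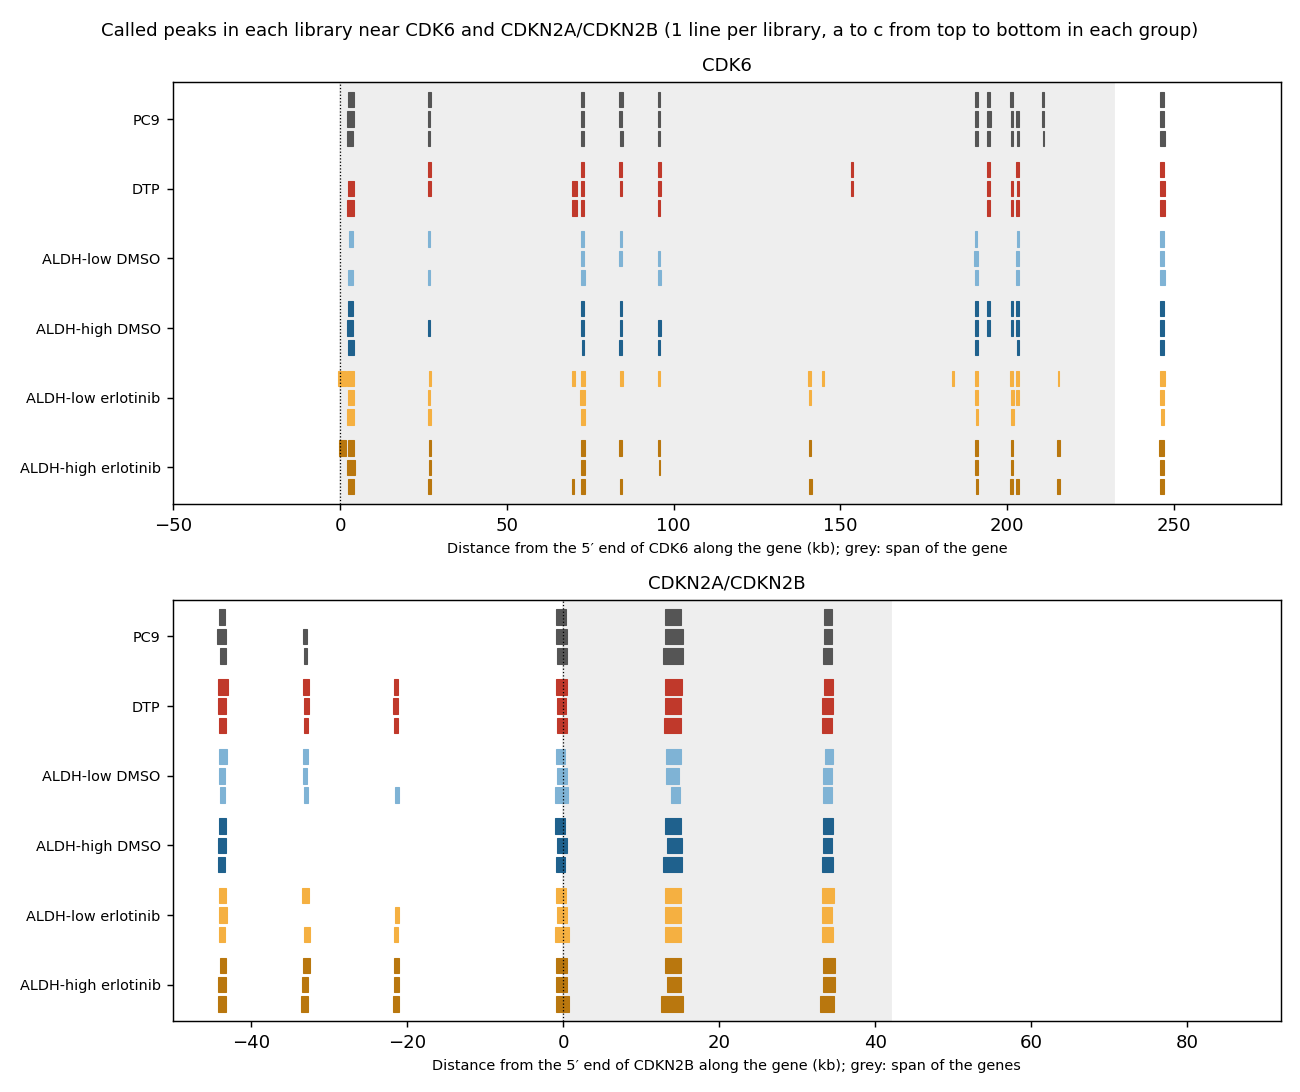
Called peaks of the 18 libraries around CDK6 and around CDKN2A and CDKN2B, drawn as bars against distance in kb from the 5′ end of CDK6 or CDKN2B, with 1 line per library and the gene span in grey. The CDK6 peak at 190.8 kb is absent from the 3 DTP lines and present in the other 15, and the 3 CDKN2A and CDKN2B start regions are present in all 18.

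Among the inhibitors, CDKN1A had no region held by every library. CDKN1A +3.2 kb (chr6:36645784-36648715) was the region nearest to the 5′ end of the gene body in hg19, beginning 1784 bp inside it. The CDKN1A promoter entry shown above is in GRCh38 and was not placed on hg19. Whether this region covers that start was therefore not determined. CDKN1A +3.2 kb was absent from the 3 PC9 libraries and present in the other 15. It was therefore gained in persisters, but with scores of 71, 82.6 and 78.59, close to the floor of 70. In the sorted libraries scores ran from 93.47 to 181.07 in DMSO and from 104.17 to 259.24 in erlotinib. Equal lists and a minimum score of 100 each left it in 0 of 3 DTP libraries, which ended the call, while equal lists kept it in all 12 sorted libraries. Treated and untreated sorted cells therefore both had the region, and the 18-library pattern was shared with 6 other regions. The PC9 libraries were not sorted, and no comparison of the design sets them against the sorted ones.

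CDKN1A +6.7 kb and CDKN1A -8.9 kb were each held by 15 libraries, PC9 included, and no other CDKN1A region was gained or lost in any comparison. Covered bases in the window were 3149, 3957 and 4262 in PC9 and 3395, 5329 and 4611 in DTP, which overlap. With equal lists the DTP libraries were all lower, with means of 1917 bases in PC9 and 679 in DTP (-1238 bases), at the smallest exact permutation p of 0.1. The sorted libraries had means of 3591 bases in DMSO and 4260 bases in erlotinib, with an exact permutation p of 0.215.

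CDKN1B kept its start open throughout and had no region gained or lost. CDKN1B +0.4 kb (chr12:12869327-12871563) had scores of 208.44, 177.13 and 251.58 in PC9 and 219.9, 202.05 and 151.04 in DTP. CDKN1B -12.3 kb, CDKN1B +8.0 kb and CDKN1B +41.9 kb were each held by 17 libraries. The window covered 4110, 3306 and 4858 bases in ALDH-low DMSO and 7209, 6212 and 4835 bases in ALDH-low erlotinib, overlapping by 1 library. In ALDH-high cells it covered 4670, 2486 and 4044 bases in DMSO and 6034, 5169 and 5243 bases in erlotinib, without overlap. Over both fractions the difference was 1871 bases (47.8%), with an exact permutation p of 0.01 and an adjusted p of 0.0633, so it did not pass.

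The CDKN2A/CDKN2B window had 4 of its 6 regions in every library, among them its 3 start regions. CDKN2A/CDKN2B -0.1 kb (chr9:22008246-22010040) at the CDKN2B start, CDKN2A/CDKN2B +14.0 kb (chr9:21993632-21996404) and CDKN2A/CDKN2B +33.9 kb (chr9:21974159-21976014) were held by all 18 libraries, also with equal lists. RefSeq places its CDKN2A starts 14.0 and 34.4 kb from the CDKN2B start in GRCh38, next to the latter 2 regions. The farther is the p16 start and the nearer the ARF start. Lowest percentiles at these 3 regions were 53.3, 46.9 and 63.3, and open chromatin was thus called at the starts of both INK4 genes in every condition.

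Change in this window was upstream of CDKN2B, in the stretch that holds CDKN2B-AS1. CDKN2A/CDKN2B -21.4 kb (chr9:22030019-22030829) was held by 0 of 3 PC9 and 3 of 3 DTP libraries and by 0 of 3 ALDH-high DMSO and 3 of 3 ALDH-high erlotinib libraries. ALDH-low cells had it in 1 DMSO and 2 erlotinib libraries, and both calls ended with equal lists. CDKN2A/CDKN2B -33.1 kb (chr9:22041507-22042605) was held by 0 of 3 ALDH-high DMSO libraries against 3 of 3 in ALDH-low DMSO and 3 of 3 in ALDH-high erlotinib. It was thus lost in ALDH-high against ALDH-low under DMSO and gained with erlotinib in ALDH-high. Both calls share the ALDH-high DMSO libraries. Both were also made with equal lists, where 0.431% of all regions were lost between fractions under DMSO. Equal lists could not have ended the loss, since ALDH-low DMSO lists were cut only at 70 to 70.7. Of the 3 ALDH-low DMSO scores (114.06, 75.39 and 81.51), 2 were near the floor, so that a minimum score of 100 ended the loss.

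Bases covered in the CDKN2A/CDKN2B window were 5892, 5385 and 5835 in ALDH-low DMSO and 6443, 6376 and 7197 in ALDH-low erlotinib. In ALDH-high cells they were 5428, 5331 and 5804 in DMSO and 7222, 7171 and 8639 in erlotinib. Erlotinib libraries were above every DMSO library in both fractions, by 1562 bases (27.8%), with an exact permutation p of 0.005 and an adjusted p of 0.0437. The median 100 kb bin was 27.1% higher in the same comparison, and 2549 of 22302 bins and windows passed. Equal lists left 1025 bases (adjusted p of 0.145), and per megabase of peaks the difference was -9.00 bases, so the call held on neither scale. The cause was not tested. The erlotinib effect was 1188 bases larger in ALDH-high than in ALDH-low cells, with an exact permutation p of 0.05, which is not under the threshold, and the other 7 windows gave exact p of 0.34 to 0.985.

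E2F1, the transcription factor released when RB is phosphorylated, gained the most covered bases among sorted cells, though CCND1 rose more in percent (97.8%). Its start region E2F1 -0.1 kb (chr20:32273152-32275043), E2F1 +18.8 kb and E2F1 -46.9 kb were held by all 18 libraries. Peaks in the window covered 6686, 6141 and 5445 bases in ALDH-low DMSO and 10716, 11040 and 7129 bases in ALDH-low erlotinib. In ALDH-high cells they covered 6839, 5220 and 4801 bases in DMSO and 8880, 7127 and 11326 bases in erlotinib. Every erlotinib library was above every DMSO library, by 3514 bases (60.02%), with an exact permutation p of 0.005 and an adjusted p of 0.0437.

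The E2F1 difference was 1825 bases with equal lists (adjusted p of 0.0659), 1700 bases with 25 kb flanks (adjusted p of 0.163) and 33.0 bases per megabase of peaks (adjusted p of 0.334), in the same direction each time and no longer past the threshold. Leaving out any 1 sorted library other than ALDH-low erlotinib c or ALDH-high erlotinib b also ended the calls at E2F1 and CDKN2A/CDKN2B, with adjusted p of 0.0524 to 0.0958 at E2F1 and 0.0524 to 0.0592 at CDKN2A/CDKN2B. In 2 of 8 windows, these 2, erlotinib libraries were higher without overlap in both fractions, and 0 were lower, where 11.1% of bins were higher and 0.318% lower by this rule. At an unadjusted exact permutation p under 0.05, 5 of 8 windows were higher and 0 lower, against 27.7% and 1.35% of the narrower bins. Within ALDH-low cells 3 windows were higher without overlap (CDKN2A/CDKN2B, E2F1 and MYC), against 26.3% of bins higher and 1.56% lower. With equal lists 1 was higher (E2F1) and 0 lower, against 17.4% and 4.96% of bins, and per megabase of peaks 0 were higher and 0 lower, against 8.94% and 12.1%. Within ALDH-high cells 3 were higher (CDKN1B, CDKN2A/CDKN2B and E2F1), against 19.8% and 1.93%. With equal lists 2 were higher (CDKN2A/CDKN2B and E2F1) and 2 lower (CCNE1 and CDK6), against 13.9% and 4.71%, and per megabase of peaks 0 were higher and 1 lower (CCNE1), against 8.03% and 9.67%. Persisters covered 9085, 8288 and 9019 bases at E2F1 against 7829, 6460 and 7125 in PC9, all higher, at the smallest exact permutation p of 0.1, and overlapped with equal lists. The window also holds parts of CBFA2T2, NECAB3, C20orf144, ACTL10, PXMP4 and ZNF341, and peaks were not assigned among these genes.

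The E2F1 regions that were gained lay away from its start. E2F1 -38.4 kb had a peak in none of the 12 PC9, DTP and sorted DMSO libraries, in 2 of 3 ALDH-low erlotinib libraries and in 3 of 3 ALDH-high erlotinib libraries. Its scores were 158.72 and 163.81 in ALDH-low and 79.3, 217.58 and 111.13 in ALDH-high cells. It was gained in ALDH-high cells only by the rule of 3 against 0, and over the sorted libraries its exact permutation p was 0.02 (adjusted p of 0.318). E2F1 +34.9 kb was gained in DTP, with scores of 75.7, 95.61 and 118.33, and was also present in 1 library each of ALDH-low and ALDH-high erlotinib. Neither call held with equal lists.

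MYC was the 1 window with fewer covered bases in every persister library than in any PC9 library as deposited, with equal lists and per megabase of peaks. Peaks in its window covered 4051, 3672 and 3800 bases in PC9 and 1415, 2686 and 2324 bases in DTP, so every DTP library was below every PC9 library. Means were 3841 ± 193 and 2142 ± 655 bases (SD, n = 3), a difference of -44.2%, while the median 100 kb bin was 8.43% higher. The exact permutation p was 0.1, the smallest that 3 against 3 allows, and the adjusted p was 0.334. Equal lists gave 3434 against 1223 bases and bases per megabase of peaks gave 101 against 49.9, without overlap in either case. MYC was 1 of 8 windows lower in persisters without overlap, and 3 were higher (CCNE1, CDKN2A/CDKN2B and E2F1), where 7.88% of bins were lower and 22% higher by the same rule. With equal lists 2 windows were lower (CDKN1A and MYC) and 2 higher (CCND1 and CCNE1), against 9.62% and 17.1% of bins. Per megabase of peaks 2 were lower (CDK6 and MYC) and 0 higher, against 14.2% and 14.4%. With flanks of 100 kb the MYC difference shrank to -176 bases.

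The MYC start still held a peak in every persister library. MYC +0.7 kb (chr8:128745902-128751409) covered 1721, 1591 and 1702 bases in PC9 and 658, 1853 and 1816 bases in DTP. Scores there were 318.52, 245.67 and 211 in PC9 and 113.02, 136.4 and 139.59 in DTP. Equal lists removed this peak from DTP library a, which was left with 0 covered bases in the window, and also from ALDH-low erlotinib library a and ALDH-high erlotinib library c. Of the sorted erlotinib libraries, 3 had much broader peaks as deposited over the start than the rest, at 4182 and 4745 bases in ALDH-low libraries a and c and 4993 bases in ALDH-high library c, against 1775 to 2026 bases in the other 9 sorted libraries.

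At and past the 3′ end of MYC, 2 regions were held by fewer persister than PC9 libraries. MYC +13.3 kb (chr8:128760286-128762319) was held by 3 of 3 PC9 and 0 of 3 DTP libraries and was called lost, while all 6 sorted erlotinib libraries, 3 of 3 ALDH-high DMSO and 1 of 3 ALDH-low DMSO libraries had it. PC9 scores there were 73.44, 112.8 and 116.33, and library a fell out with equal lists, which ended the call. MYC +6.9 kb (chr8:128753692-128756188) was held by 3 of 3 PC9 and 1 of 3 DTP libraries, by all 6 sorted DMSO libraries, by 1 of 3 ALDH-low erlotinib and 3 of 3 ALDH-high erlotinib libraries. With equal lists it was held by 3 of 3 libraries in PC9, ALDH-low DMSO and ALDH-high DMSO and by 0 of 3 in DTP, ALDH-low erlotinib and ALDH-high erlotinib. Its exact permutation p over the sorted libraries was 0.4 as deposited (adjusted p of 1). The 4 erlotinib peaks that equal lists removed had scores of 95.09 to 109.12, while an ALDH-low DMSO peak of 96.34 in library c was kept. The calls among sorted cells were thus made with equal lists only, whose lowest scores are unequal. Before any cut only 1 of 3 ALDH-low erlotinib libraries held the region, and the cause was not tested. The single DTP peak scored 82.75, below the lowest scores kept in PC9 and DTP lists.

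Covered bases at MYC after 12 hours of erlotinib were higher than in DMSO at the mean of both fractions as deposited. ALDH-low cells covered 4285, 3977 and 3466 bases in DMSO and 5677, 5037 and 5866 bases in erlotinib, all higher. ALDH-high cells covered 5170, 4364 and 5521 bases in DMSO and 5522, 4581 and 10456 bases in erlotinib, which overlap. Over both fractions the difference was 1726 bases, with an exact permutation p of 0.025 and an adjusted p of 0.105. Equal lists turned this to -889 bases (exact permutation p of 0.21), whereas they did not turn the MYC difference in persisters. Per megabase of peaks the erlotinib differences at MYC were -0.570 bases in ALDH-low and 9.42 bases in ALDH-high cells, with overlap in both.

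**Figure D4:**
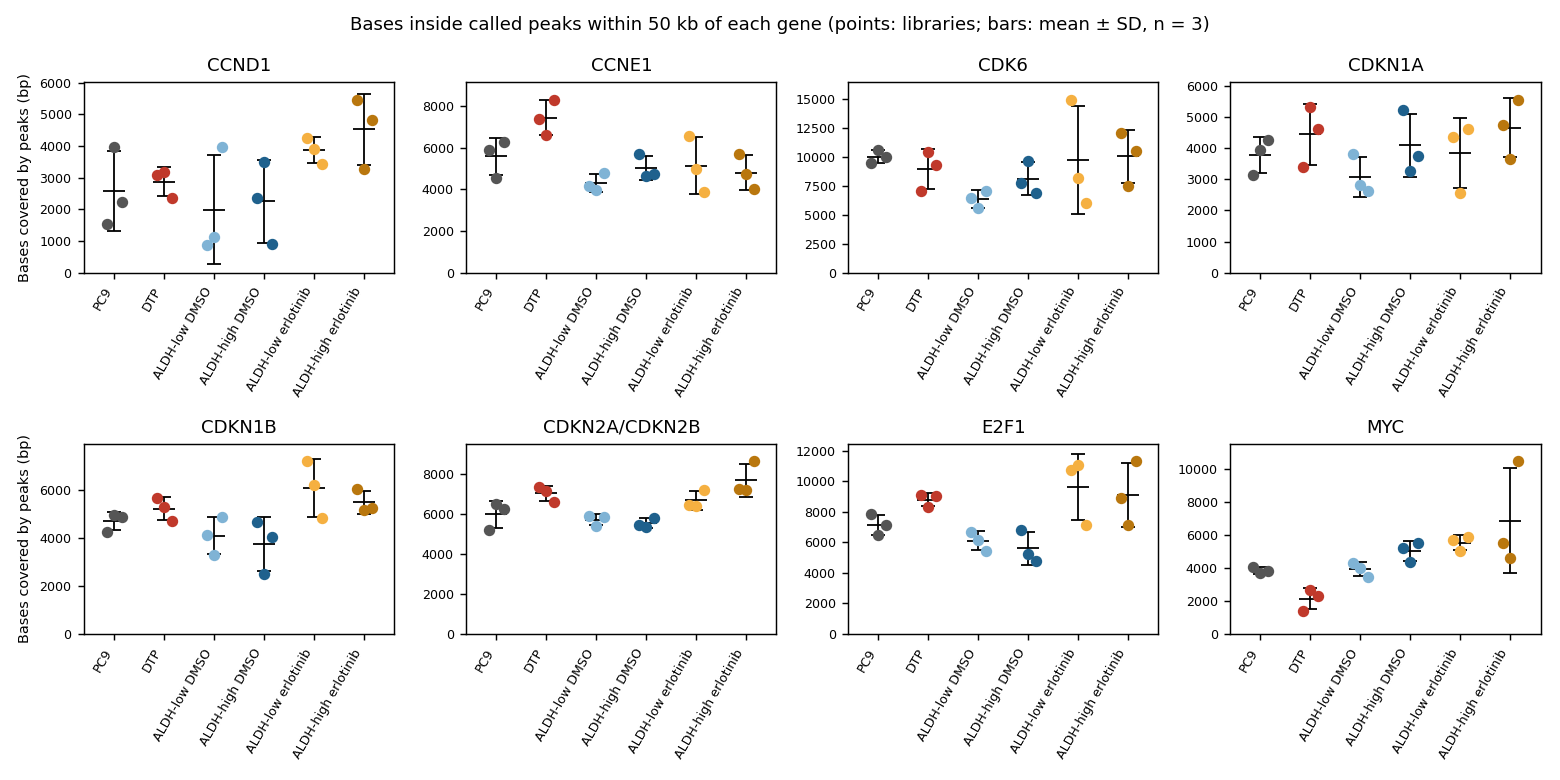
Bases covered by peaks in each of the 8 windows, with 1 point per library, the group mean as a line and the SD as a bar, on axes that start at 0. The 3 DTP points lie below the 3 PC9 points at MYC, and the 6 erlotinib points lie above the DMSO points of their own fraction at E2F1 and CDKN2A/CDKN2B.

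Gained and lost regions at the 9 loci were few, and their shares lay near those of all regions in most comparisons. In DTP against PC9, 3 of 58 regions (5.17%) were gained and 3 (5.17%) lost, where 6.75% and 3.68% of all regions were. With erlotinib in ALDH-low cells 2 of 57 were gained and 1 lost, against 6.82% and 0.887% of all regions. In ALDH-high cells 3 of 61 were gained and 1 lost, against 4.52% and 0.998%. Both sorted comparisons lost the same member, CCNE1 +8.1 kb, and no member was gained in both. The 3 drug comparisons do not share control libraries.

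Equal lists held 54 regions in the windows of 53296 in all, and calls made on them carry the unequal lowest scores given above. Members lost in persisters were CCNE1 +8.1 kb, CDK6 +190.8 kb and MYC +6.9 kb, 3 of 42 (7.14%), and 0 were gained, where 5.03% of all regions were lost and 5.47% gained. In ALDH-low cells CCNE1 +8.1 kb, CDK6 +203.2 kb and MYC +6.9 kb were lost, 3 of 44 (6.82%), and 0 gained, where 2.76% were lost and 3.39% gained. In ALDH-high cells CCNE1 +8.1 kb, CDK6 +84.2 kb and MYC +6.9 kb were lost, 3 of 46 (6.52%), and CDKN2A/CDKN2B -33.1 kb was gained, where 2.42% were lost and 3.01% gained. Of these, CCNE1 +8.1 kb in both sorted fractions, CDK6 +190.8 kb in persisters and the gained CDKN2A/CDKN2B -33.1 kb were also called with the lists as deposited. Over the sorted libraries 2 of 50 were lost, where 0.692% of all regions were lost and 0.94% gained. None of the 34772 regions tested in equal lists passed, the smallest adjusted p being 0.224, with 948 lower and 1171 higher at an unadjusted exact permutation p under 0.05.

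ALDH fraction left few differences at these loci. Under DMSO, 0 of 46 regions were gained and 1 was lost in ALDH-high against ALDH-low, CDKN2A/CDKN2B -33.1 kb, where 1.28% and 0.14% of all regions were. Under erlotinib 0 of 60 were gained and 0 lost, against 0.893% and 0.446%. No member was separated by fraction over all 12 sorted libraries, where 0.0186% of all regions were higher and 0% lower in ALDH-high. The windows of all 8 loci overlapped between fractions over both treatments, and their exact permutation p ran from 0.13 at CDKN1A to 0.75 at CCNE1. MYC under DMSO was the 1 window whose ALDH-high libraries were all above the ALDH-low ones, by 1109 bases, at the smallest exact permutation p of 0.1 and an adjusted p of 0.968, where 9.32% of bins were higher and 1.01% lower by that rule. Under erlotinib all 8 windows overlapped between fractions, where 5.88% of bins were higher and 3.06% lower, and over both treatments 0.888% and 0.0583% of bins were.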

How the data were processed

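ATAC-seq was measured in 18 libraries of PC9 cells in 6 groups of 3. Per the submitters' processing notes the authors used BWA, MACS 1.4.2 and hg19, and the deposited files are 1 peak list per library with a score for each peak. The sources used here do not give other settings or the read depth, and the scores start at 70 in every list. Lists held 26228 to 45244 peaks, which limits what short lists can show. Groups were taken from the sample labels, and the member genes, lists and tests were chosen with earlier results of these data known.

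Peaks on chromosomes 1 to 22 and X (3 to 7 peaks per list lay elsewhere) were merged where they shared at least 1 bp, with Python 3.11.15 and NumPy 2.4.6, and drawn with matplotlib 3.10.9. Every member gene was named, with, per window, the region at or nearest the start, each region gained, lost or separated, and the highest-ranking region among the most widely held. Exact permutation tests were two-sided. P-values were Benjamini-Hochberg adjusted over 49820 regions that varied among sorted libraries, or over 22294 bins of 100 kb plus the 8 windows. The script was tested on simulated data. Alternatives were a score of at least 100, equal lists, flanks of 25 and 100 kb, 50% cover of a region, merging within 200 bp, bases per covered megabase, blocking on the library letter, and leaving out each library. No hg19 genome was used, so peak sequences are not shown and neighbouring genes are names from RefSeq (GRCh38.p14) only.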

Additional observations from a re-analysis of the deposited data

Results flagged for a closer look

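The MYC window moved in opposite directions in 2 drug comparisons that share no library. Every DTP library covered fewer bases than every PC9 library, with a mean difference of -1699 bases, and every ALDH-low erlotinib library covered more than every ALDH-low DMSO library, with a mean difference of 1617 bases. The difference between these 2 changes was not tested. With equal lists the persister difference was -2211 bases and the ALDH-low difference was -390 bases, so the opposite directions were seen with the lists as deposited and not with equal lists. The cut left every ALDH-low DMSO value at MYC unchanged. It took ALDH-low erlotinib libraries a and b from 5677 and 5037 to 1495 and 3197 bases and left c at 5866. The ALDH-low value with equal lists therefore carries their unequal lowest scores.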

How the results depend on the processing

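Read depth is unknown, and the lists differ in length between groups, which bears most on coverage and on peaks near the score floor. Counts of member regions moved by more than 1.5 times in these cases. With a score of at least 100, regions gained in DTP were 0, lost with erlotinib in ALDH-low 0, gained and lost in ALDH-high against ALDH-low under DMSO 1 and 0, and gained and lost over the sorted libraries 1 and 0. With equal lists, 0 were gained in DTP, 0 gained and 3 lost in ALDH-low, 1 gained and 3 lost in ALDH-high, and 2 lost over the sorted libraries. Flanks of 25 kb left 1 gained in ALDH-high and 0 lost under DMSO, flanks of 100 kb gave 7 gained and 6 lost in DTP, and 50% cover left 1 gained in ALDH-low. Merging within 200 bp moved none of the 14 counts. Wider flanks take in more regions, and the number of regions held within the other flanks was not counted. For the other settings, except equal lists, the share of all regions called was not computed. Such counts do not set these loci apart from other regions.

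With 1 library left out at a time, regions gained in DTP were 3 to 5 (5 without DTP a or DTP c), gained in ALDH-low 2 to 7 (7 without ALDH-low erlotinib c), lost in ALDH-low 1 to 2 (2 without ALDH-low erlotinib b), gained in ALDH-high 3 to 9 (9 without ALDH-high erlotinib b) and lost in ALDH-high 1 to 2 (2 without ALDH-high DMSO c or ALDH-high erlotinib c). Regions gained in ALDH-high against ALDH-low under DMSO were 0 to 2 (1 or 2 without ALDH-low DMSO a or c or ALDH-high DMSO b or c), and under erlotinib 0 to 1 gained and 0 to 1 lost (without ALDH-low erlotinib b or ALDH-high erlotinib b, and without ALDH-low erlotinib a). Regions gained over the sorted libraries were 0 to 1 (1 without ALDH-low erlotinib c). Leaving out a library loosens the rule for a call, and the share of all regions then called was not computed. These counts are therefore no result about the member genes.

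Differences in covered bases between sorted erlotinib and DMSO libraries changed direction at CCNE1 (-205 with a score of at least 100, -429 with equal lists, -10.7 with 25 kb flanks and -30.3 per covered megabase), and with 1 library left out ran from -41.8 (without ALDH-low erlotinib a) to 635 bases. Equal lists also turned CCND1 (-174), CDK6 (-973), CDKN1A (-204) and MYC (-889), and in ALDH-low alone MYC (-390). Per covered megabase, CDKN1A (-12.4) and CDKN2A/CDKN2B (-9.00) turned, as did CDKN2A/CDKN2B (-34.1) and MYC (-0.570) in ALDH-low. Between fractions, where nothing passed the test, CCNE1 was -70.8 with equal lists, -5.62 per covered megabase and -129 to 548 with 1 library left out. E2F1 was 175 with 25 kb flanks and -1119 to 2 with 1 left out, CDKN1B was 877 with 100 kb flanks, and CDKN2A/CDKN2B was -9.01 per covered megabase. The causes were not tested.

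Of 15 calls of single regions, 6 held with equal lists, 4 with a score of at least 100 and 11 with 50% cover and all when merging within 200 bp. Equal lists are no check on losses that rest on ALDH-low DMSO peaks alone, since those lists were cut only at 70 to 70.7. Leaving out a library cannot end such a call, since all against none stays so with fewer libraries, and says nothing of its stability.

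The erlotinib calls at E2F1 and CDKN2A/CDKN2B ended with equal lists (1825 and 1025 bases), and E2F1 also with 25 kb flanks (1700 bases) and per covered megabase (33.0). Their differences ran from 2961 to 4139 and from 1322 to 1689 bases with 1 library left out. The MYC difference in persisters was -176 bases with 100 kb flanks and -1972 to -1336 with 1 library left out. No pairing by library letter was seen, with correlations of -0.0295 to 0.0282 between 15 same-letter pairs and -0.0361 to 0.0507 between 30 others. With 3 libraries per group these correlations cannot exclude pairing. With the letter as a replicate block, the differences were 3514 and 1562 bases and the exact permutation p was 0.0312 (adjusted 0.161) at both windows, the smallest that 64 assignments allow, and no other window changed its call.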
